A study of Mus musculus with 4 samples.

Results

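The suppressors of cytokine signalling (SOCS) are feedback inhibitors of cytokine receptors, and all 8 mouse genes of the family were followed in stimulated CD4+ T cells: Cish, Socs1, Socs2, Socs3, Socs4, Socs5, Socs6 and Socs7. They were taken by name as a whole family from a table of 21937 genes, and each of the 8 was found in it. The family was chosen with earlier results of these data known. The RNA came from splenic cells of B6 mice aged 6 weeks, activated with PMA, a phorbol ester, and ionomycin, a calcium ionophore, drugs that act downstream of the T cell receptor. There were 4 libraries, 1 per genotype: a library labelled as the knockout of both Itch and WWP2 (DKO), an Itch KO (Itchf/f Cd4cre, a floxed allele with Cre driven from the Cd4 promoter, which is active in T cells), a WWP2 KO (WWP2-/-), and wild type. All 4 shared the stimulation. The duration of the stimulation and the number of mice in each library were not stated in the labels.

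A cytokine bound to its receptor activates Janus kinases (JAK), which phosphorylate STAT transcription factors, and STATs in turn switch on several SOCS genes. The proteins carry an SH2 domain that binds phosphotyrosine and a C-terminal SOCS box that recruits elongins B and C and cullin 5, so that a SOCS protein acts as the substrate adaptor of a ubiquitin ligase. SOCS1 and SOCS3 also hold a short kinase inhibitory region that blocks JAK directly. In T cells SOCS1 restrains interferon-gamma and IL-2 family signals, SOCS3 binds the shared receptor chain gp130 and restrains IL-6, and CIS, the product of Cish, restrains STAT5 signals of IL-2.

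The libraries held between 17130747 and 17990392 counts. Wwp2 had 1135 reads in the library labelled DKO, 1332 in Itch KO and 4 in WWP2 KO, against 1363 in wild type. The value in the library labelled DKO goes against its label, so a direction drawn from it belongs to that library and not to a known genotype. Itch had 2389, 1914, 1996 and 2083 reads in the same order; a count over the whole gene takes in exons outside a deleted part and checks neither Itch label. The T cell genes of the CD4 T cell list, 6 of 7 of which were in the table, summed to between 1077 and 1620 CPM, the unit of counts after scaling for library size, while each of the 9 lists for other cell types summed to at most 28.9 CPM in any library. Among these, the mast cell and basophil list, with 5 of 5 genes in the table, moved with the groups, at 5.27 CPM in the library labelled DKO, 10.9 in Itch KO and 28.9 in WWP2 KO, against 24.9 in wild type. Kit gave 85, 188, 493 and 429 reads of it in that order, Mcpt8, a basophil gene, gave 12, 0, 2 and 0, and Fcer1a and Ms4a2 were at 0 in all 4 libraries. The NK cell list, with 4 of 4 genes in the table and none at 0 throughout, also moved with the groups, at 1.18, 4.38, 5.54 and 7.61 CPM in that order; Klrb1c gave 12, 37, 57 and 88 reads of it and Klrc1 gave 3, 30, 31 and 39. The neutrophil list, with 4 of 5 genes in the table, summed to 1.18 CPM in the library labelled DKO and to 0 in wild type, with S100a8 and Elane at 0 throughout. Their part in the SOCS levels was not tested. Each genotype rests on a single library, so no replicate spread can be given, and folds carry 95% intervals for counting error only. In bulk RNA, fewer cells expressing a gene and less RNA per cell cannot be told apart.

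Cish, Socs1, Socs2 and Socs3, the members best known as cytokine-induced, each reached 2-fold over wild type in Itch KO and in the library labelled DKO, and Socs4, Socs5, Socs6 and Socs7 were not. In WWP2 KO none of the 8 genes reached 2-fold. The size rule counts a gene as higher or lower when its log2 ratio reaches 1 in either direction, its mean is at least 2 CPM and the interval of the fold excludes 1. By that rule 4 of 8 members were higher and 0 lower in the library labelled DKO, where 12.3% of the 9926 genes tested were higher and 6.34% lower. In Itch KO 4 of 8 members were higher and 0 lower, against 4.89% and 0.846% of 9924 genes. In WWP2 KO the counts were 0 and 0, against 0.282% and 0.161% of 9923 genes. All 8 members passed the minimum level. The median log2 ratio of the family was 0.55 in the library labelled DKO, 0.59 in Itch KO and 0.10 in WWP2 KO, beside -0.03, -0.02 and -0.01 over all genes tested. Together the 8 genes took 20966 reads in the library labelled DKO, 16105 in Itch KO and 9244 in WWP2 KO, against 8554 in wild type.

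**Figure D1:**
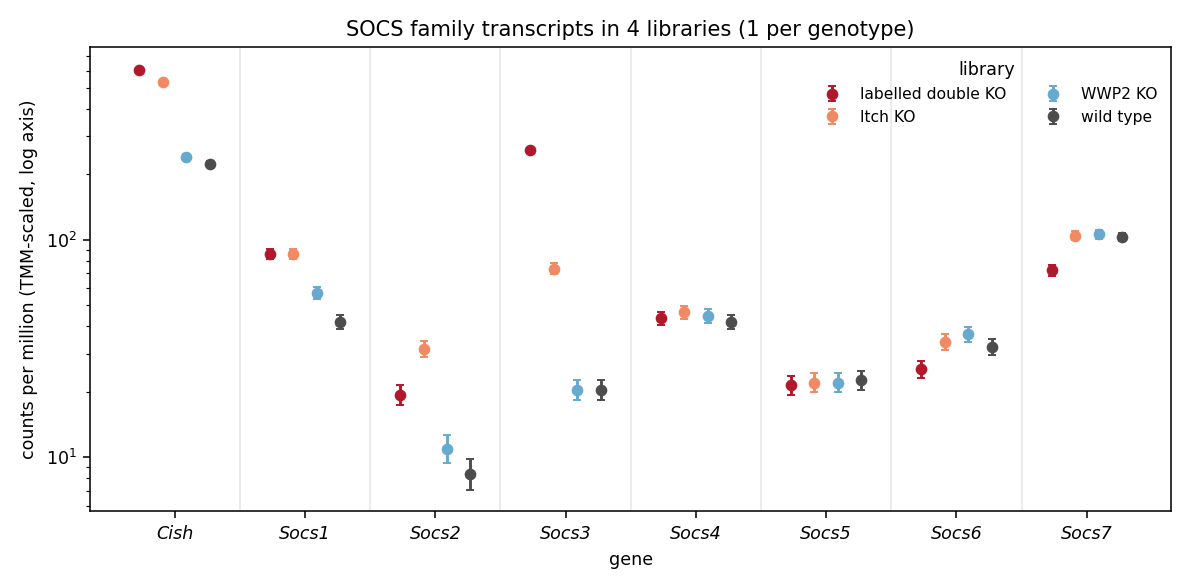
Level of the 8 SOCS family genes (x axis) in CPM on a log axis, 1 point per library with its 95% Poisson interval. For Cish, Socs1, Socs2 and Socs3 the points of the library labelled DKO and of Itch KO lie above those of WWP2 KO and wild type, and for Socs4 and Socs5 all 4 points lie together, between 41.99 and 46.5 CPM and between 21.5 and 22.7 CPM.

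Promoter sequences are shown for the members with an entry in the RefSeq table of build GRCm38.p6, since these are the stretches in which STAT factors and interferon regulatory factors could bind and since 3 of the 4 are genes that were higher together. Of the 8 members 4 matched. Each window runs from 250 bases before to 50 bases after the annotated start, written 5′ to 3′ on the gene's strand. Capitals mark the palindrome TTCNNNGAA, the core letters bound by most STATs, and GAAANNGAAA, letters found in sites of interferon regulatory factors, searched on both strands; the longer palindrome TTCNNNNGAA, which STAT6 prefers, was also searched. The first 3 belong to members that were higher in Itch KO, and the last, Socs4, to one that was not.
Cish, chr9:107296409-107296708, plus strand: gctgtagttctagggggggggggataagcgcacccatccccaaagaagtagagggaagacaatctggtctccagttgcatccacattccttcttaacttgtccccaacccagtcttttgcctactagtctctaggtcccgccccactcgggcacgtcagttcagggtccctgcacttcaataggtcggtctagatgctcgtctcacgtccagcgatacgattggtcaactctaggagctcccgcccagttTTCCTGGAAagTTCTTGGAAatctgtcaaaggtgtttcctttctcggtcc
Socs1, chr16:10785487-10785786, minus strand: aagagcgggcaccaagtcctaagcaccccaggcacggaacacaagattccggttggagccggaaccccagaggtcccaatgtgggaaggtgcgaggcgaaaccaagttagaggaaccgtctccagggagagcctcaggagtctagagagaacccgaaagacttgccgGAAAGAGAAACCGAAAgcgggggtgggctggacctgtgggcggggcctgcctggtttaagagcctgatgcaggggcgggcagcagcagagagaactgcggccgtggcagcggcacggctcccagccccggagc
Socs3, chr11:117969317-117969616, minus strand: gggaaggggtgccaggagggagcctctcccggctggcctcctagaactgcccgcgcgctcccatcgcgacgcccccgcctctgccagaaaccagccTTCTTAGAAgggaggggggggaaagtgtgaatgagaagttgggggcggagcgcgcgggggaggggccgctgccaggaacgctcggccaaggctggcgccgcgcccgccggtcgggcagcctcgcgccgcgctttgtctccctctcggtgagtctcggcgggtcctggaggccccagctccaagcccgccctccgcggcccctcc
Socs4, chr14:47276670-47276969, plus strand: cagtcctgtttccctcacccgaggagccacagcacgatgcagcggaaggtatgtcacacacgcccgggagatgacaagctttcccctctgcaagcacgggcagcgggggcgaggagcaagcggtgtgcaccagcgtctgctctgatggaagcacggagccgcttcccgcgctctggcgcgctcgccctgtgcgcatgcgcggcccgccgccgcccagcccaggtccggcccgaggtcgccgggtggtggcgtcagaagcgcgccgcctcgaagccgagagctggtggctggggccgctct
The Cish window held 2 matches to TTCNNNGAA, TTCCTGGAA and TTCTTGGAA, which begin at bases 1 and 12 of the transcript. The Socs3 window held 1, TTCTTAGAA, which begins 154 bases before the start. Socs1 held 2 overlapping matches to GAAANNGAAA, GAAAGAGAAA and GAAACCGAAA, and none to TTCNNNGAA. Socs4 matched none of the 3 motifs, and none of the 4 windows matched TTCNNNNGAA. Of 32851 promoter windows of this length, 8.30% held TTCNNNGAA, 6.95% held TTCNNNNGAA and 3.44% held GAAANNGAAA. A match is a description of letters and not a measured site.

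Cish had 11189 reads in the library labelled DKO, 9198 in Itch KO and 4130 in WWP2 KO, against 3867 in wild type. The library labelled DKO and Itch KO stood together at the high end, and WWP2 KO was close to wild type. On the CPM scale, after scaling by TMM (trimmed mean of M values), these counts were 602 CPM in the library labelled DKO, 530 in Itch KO and 241 in WWP2 KO, against 223 in wild type. Against wild type the fold was 2.70 in the library labelled DKO (2.60 to 2.80), 2.38 in Itch KO (2.29 to 2.47) and 1.08 in WWP2 KO (1.03 to 1.13). GENCODE M21 places an antisense gene, Gm17041, and a pseudogene, Gm17040, across exons of Cish on the other strand; since the strand setting of the counting is not given, their reads cannot be told apart from those of Cish.

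Socs3 spread farthest of the family. It had 4794 reads in the library labelled DKO, 1279 in Itch KO and 351 in WWP2 KO, against 354 in wild type. The level stepped up from a shared low value in WWP2 KO and wild type to an intermediate one in Itch KO and the highest in the library labelled DKO. The fold over wild type was 12.6 in the library labelled DKO (11.3 to 14.1) and 3.61 in Itch KO (3.21 to 4.07), whereas WWP2 KO stood at 1.0 (0.863 to 1.17). The ratio of the library labelled DKO to wild type was above that of 98.4% of the genes tested, and that of Itch KO to wild type likewise above 98.4%.

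Socs2, best known for limiting growth hormone signalling, was the scarcest of the family in wild type and the only one of the 4 genes with its highest value in Itch KO. It had 359 reads in the library labelled DKO, 545 in Itch KO and 188 in WWP2 KO, against 145 in wild type. Its fold over wild type was 2.31 in the library labelled DKO (1.90 to 2.82) and 3.76 in Itch KO (3.12 to 4.54). In WWP2 KO it was 1.31 (1.05 to 1.64), below the 2-fold rule with an interval that excluded 1.

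Socs1 had 1600 reads in the library labelled DKO, 1493 in Itch KO and 978 in WWP2 KO, against 725 in wild type. Its scaled levels, 86.1 CPM in the library labelled DKO and 86.1 CPM in Itch KO, could not be separated, and WWP2 KO, at 57.0 CPM, lay between these and wild type, at 41.8 CPM. The fold over wild type was 2.06 in the library labelled DKO (1.88 to 2.25) and 2.06 in Itch KO (1.88 to 2.25), so both intervals reach below 2 and the size rule was passed narrowly. In WWP2 KO the fold was 1.36 (1.24 to 1.5). Of the 8 members this was the farthest from 1 in WWP2 KO, and 96.8% of genes had a lower ratio there.

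**Figure D2:**
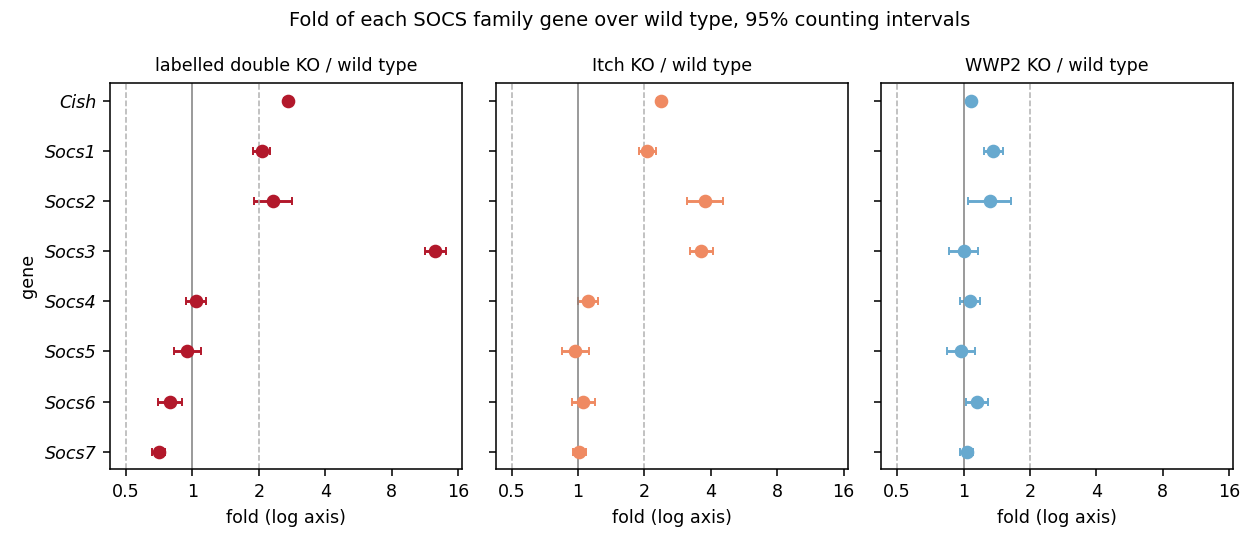
Fold of each SOCS family gene (rows) over wild type on a log axis in the library labelled DKO, Itch KO and WWP2 KO, with 95% counting intervals; dashed lines mark 2-fold. The upper 4 genes lie past the 2-fold line in the left and middle panels, Socs3 farthest at 12.6 in the library labelled DKO, and no gene reaches it in WWP2 KO.

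Socs4 and Socs5, which have long N-terminal regions and are known for acting on the epidermal growth factor receptor, stayed well under 2-fold. Socs4 had 810 reads in the library labelled DKO, 807 in Itch KO and 767 in WWP2 KO, against 728 in wild type. Socs5 had 399, 382, 378 and 393 reads in the same order. The intervals of the Socs5 fold over wild type included 1 in the library labelled DKO (0.822 to 1.09), in Itch KO (0.842 to 1.12) and in WWP2 KO (0.842 to 1.12), and all 3 exclude a 2-fold difference. Socs4 was at 1.04 in the library labelled DKO (0.938 to 1.15), 1.11 in Itch KO (1.001 to 1.23, which excludes 1) and 1.07 in WWP2 KO (0.961 to 1.18).

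Socs6 and Socs7, the members known for acting on insulin receptor substrates and receptor tyrosine kinases, had their lowest values in the library labelled DKO. Socs7 had 1344 reads there, against 1812 in Itch KO and 1820 in WWP2 KO, against 1785 in wild type. The library labelled DKO lay at 72.3 CPM, apart from the other 3 libraries at 104, 106 and 103 CPM, and was 1.42-fold lower than wild type (1.33 to 1.53). Socs6 had 471 reads in the library labelled DKO, 589 in Itch KO and 632 in WWP2 KO, against 557 in wild type, and was 1.27-fold lower in the library labelled DKO than in wild type (1.12 to 1.44). Neither difference reaches 2-fold.

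Levels were next compared between members, per kilobase of exon annotated by GENCODE M21, because longer transcripts collect more reads. Cish was the most abundant member in every library, at 165 CPM per kb in the library labelled DKO, 145 in Itch KO and 66.1 in WWP2 KO, against 61.2 in wild type. Its share of the family per length varied little, between 50.3% and 58.8%. Socs3 made up 30.8% of the family in the library labelled DKO, 11.7% in Itch KO and 6.16% in WWP2 KO, against 6.81% in wild type, and its rank was 2 in the library labelled DKO, 3 in Itch KO and 4 in the other 2 libraries. Socs1 and Socs3 could not be separated in Itch KO, at 29.6 and 28.9 CPM per kb, nor could Socs7 and Socs1 in wild type, at 14.7 and 14.4, at this length of Socs1. In the library labelled DKO the order was Cish, Socs3, Socs1, Socs7, Socs2, Socs4, Socs5 and Socs6, in which the intervals of Socs2 and Socs4 overlapped, as did those of Socs5 and Socs6. In Itch KO the lower ranks were Socs7, Socs2, Socs4, Socs6 and Socs5, with overlap of the last 2. In wild type they were Socs3, Socs4, Socs6, Socs5 and Socs2, with overlap from Socs4 to Socs6 and from Socs6 to Socs5. In WWP2 KO Cish, Socs1, Socs7 and Socs3 led, followed by Socs4, Socs6, Socs5 and Socs2, with overlap of Socs4 and Socs6 and of Socs5 and Socs2. The Socs1 length is uncertain, 2908 bases of exon in GENCODE against a RefSeq gene span of 1729 bases, and with the shorter one Socs1 stood at 49.8 CPM per kb in Itch KO, above Socs3, and at 24.2 in wild type, above Socs7.

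**Figure D3:**
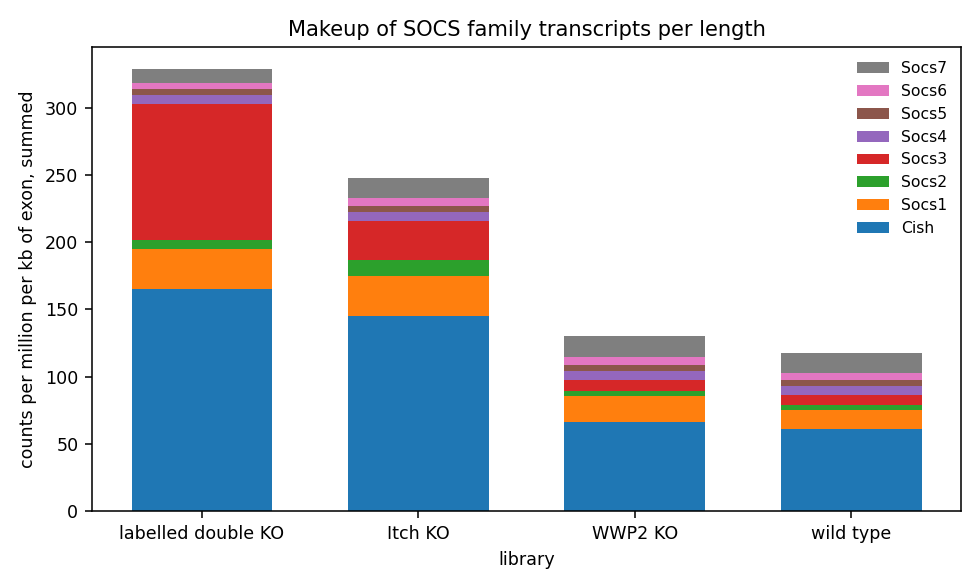
Stacked levels of the 8 members per kilobase of exon (y axis, CPM per kb) in each library. Cish takes the largest part of every bar, and Socs3 takes 30.8% of the bar in the library labelled DKO against 6.81% in wild type.

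Each label could be examined in a pair of comparisons that share no library. For the Itch label these are Itch KO over wild type and the library labelled DKO over WWP2 KO. The second also differs in Wwp2, with 1135 reads in the library labelled DKO against 4 in WWP2 KO. That comparison therefore does not measure the Itch label alone. In the second comparison 2 of 8 members were at least 2-fold higher and 0 lower, where 11.6% of genes were higher and 6.05% lower. These were Cish, 2.50-fold higher (2.41 to 2.59), and Socs3, 12.6-fold higher (11.3 to 14.1). Both were also higher in the first comparison, so 2 of 8 members passed in both, against 4.28% of 9924 genes. Socs1 was at 1.51-fold (1.39 to 1.64) and Socs2 at 1.76-fold (1.47 to 2.11) in the second comparison. Their intervals exclude 1, and neither reached 2-fold. Itch KO set directly against WWP2 KO had 3 of 8 members higher and 0 lower, where 4.62% of genes were higher and 1.15% lower: Cish at 2.20-fold (2.12 to 2.28), Socs2 at 2.87-fold (2.42 to 3.40) and Socs3 at 3.60-fold (3.20 to 4.06).

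For the WWP2 label the pair is WWP2 KO over wild type and the library labelled DKO over Itch KO. In the second of these 1 of 8 members was higher and 0 lower, against 9.18% and 5.16% of genes. Socs3 was the gene, 3.5-fold higher (3.29 to 3.72), while it stood at 1.0-fold in WWP2 KO. Socs2 was 1.63-fold lower in the library labelled DKO than in Itch KO (1.42 to 1.86). Socs7 was 1.44-fold lower there (1.35 to 1.55) and Socs6 1.34-fold lower (1.19 to 1.52), short of 2-fold. Cish was at 1.14-fold (1.10 to 1.17) and Socs1 at 1.0-fold (0.931 to 1.07). Since the library labelled DKO held Wwp2 reads, this comparison is of 2 libraries and does not measure loss of WWP2.

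**Figure D4:**
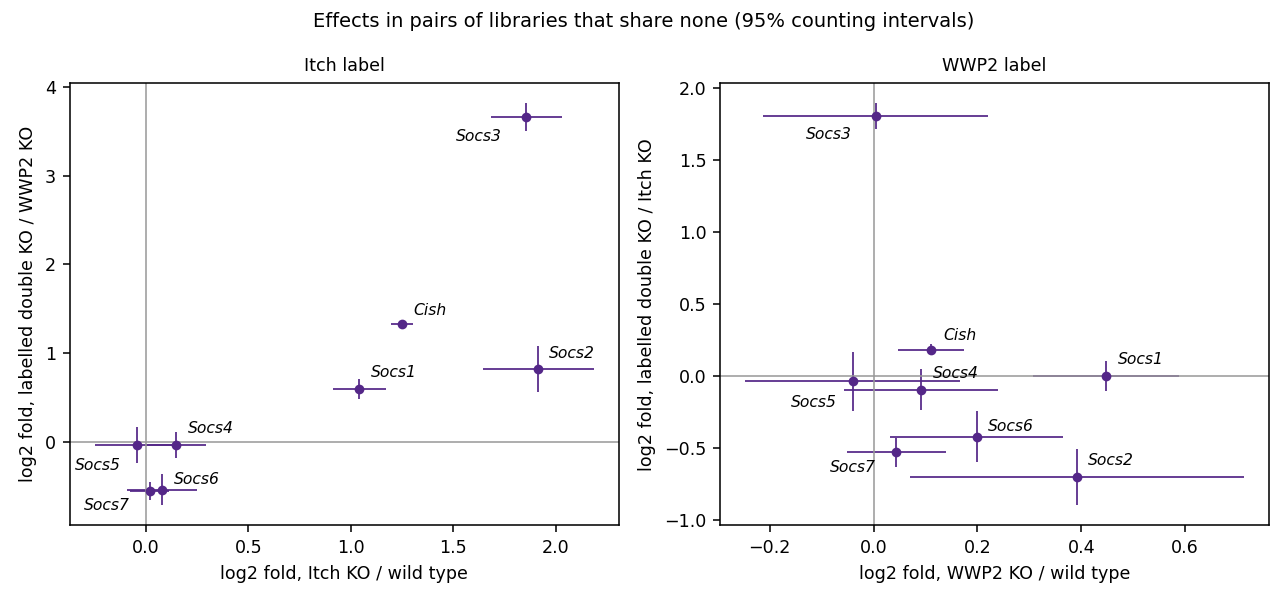
Log2 folds of the 8 members in 2 comparisons that share no library, for the Itch label (left: x axis, Itch KO over wild type; y axis, library labelled DKO over WWP2 KO) and the WWP2 label (right: x axis, WWP2 KO over wild type; y axis, library labelled DKO over Itch KO), with 95% counting intervals. On the left Cish, Socs1, Socs2 and Socs3 lie above 0 on both axes; on the right Socs3 stands alone at the top, near 0 on the x axis.

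The contrast with 2 libraries a side is that of the Itch-deficient labels (the library labelled DKO and Itch KO) over the Itch-intact ones (WWP2 KO and wild type). It was fitted across 11197 genes with edgeR's quasi-likelihood test and Benjamini-Hochberg adjustment over all of them. The 2 residual degrees of freedom hold the WWP2 label as well as the spread between libraries. The libraries of a side differ in genotype and are not replicates. None of the 8 members passed an adjusted p of 0.05, where 0.00893% of genes (1 gene) did. At an unadjusted p under 0.05 there were 4 members, against 13.6% of genes. The log2 fold was 1.30 for Cish, 0.81 for Socs1, 1.4 for Socs2 and 3.04 for Socs3, each higher in 2 of 2 libraries labelled Itch-deficient than in both others, with edgeR adjusted p-values of 0.246, 0.26, 0.254 and 0.246. For Socs4, Socs5, Socs6 and Socs7 it was 0.07, -0.03, -0.21 and -0.23, with adjusted p-values from 0.65 to 0.95. DESeq2's Wald test on the same libraries called 3 members, Cish (adjusted p = 1.362e-06), Socs3 (1.053e-06) and Socs2 (0.008405), but not Socs1 (0.05376), and 6.15% of all genes. An edgeR model with a further term for the WWP2 label, which leaves 1 residual degree of freedom, called Cish (0.04431) and Socs3 (0.04333) and 1.56% of genes; that term counts the library labelled DKO as WWP2-deficient, against its 1135 Wwp2 reads. With the library labelled DKO left out, edgeR called 4 members, Cish, Socs1, Socs2 and Socs3, where 13.6% of genes passed. With Itch KO left out it called 6 members, Socs6 and Socs7 being lower, where 53.4% of genes passed. With WWP2 KO left out it called 0, beside 0.00859% of genes, and with wild type left out 0, beside 0.0171%.

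The rest of the pathway was read from lists of cytokines, receptors, kinases, STATs, inhibitors and STAT targets. Of the 18 cytokine genes that signal through JAK, 14 passed the minimum level. In the library labelled DKO 8 were higher and 2 lower than in wild type, in Itch KO 9 were higher and 0 lower, and in WWP2 KO 0 were higher and 1 lower (Il3, named after its value was seen, with 3 reads against 16 in wild type). Of all genes tested, 12.3% were higher and 6.34% lower in the library labelled DKO. The shares were 4.89% and 0.846% in Itch KO, and 0.282% and 0.161% in WWP2 KO. The minimum level is a mean over the 4 libraries, so a gene near 0 in wild type passed only through libraries where it was high. Il6 and Il9, with 1 wild-type read each, and Il5, with 11, are such genes. For such genes a higher call was partly fixed by the filter, in this list and in those below. Il6 signals through gp130. It had 641 reads in the library labelled DKO, 57 in Itch KO and 1 in WWP2 KO, against 1 in wild type. Il10, whose receptor acts through STAT3, had 4524, 455, 95 and 103 reads in the same order. These 2 genes share with Socs3 a low level in WWP2 KO and wild type, a higher one in Itch KO and the highest in the library labelled DKO. The steps are not particular to these 2, since Il3 (182, 109, 3 and 16 reads) and Il4, given below, had them too. Some other cytokine genes were instead highest in Itch KO. Il5 had 1990 reads in the library labelled DKO, 2290 in Itch KO and 11 in WWP2 KO, against 11 in wild type, and Il13 (2997, 3206, 219 and 117) and Il9 (41, 406, 4 and 1), both named after their values were seen, were also highest in Itch KO. Il2, the T cell growth factor gene and an activator of STAT5, had 270 reads in the library labelled DKO, 5779 in Itch KO and 4226 in WWP2 KO, against 5139 in wild type. It was thus lowest in 1 of the 2 libraries where Cish was high. Il4, which acts through STAT6, had 460, 236, 31 and 27 reads. Ifng, the interferon-gamma gene, had 216, 469, 291 and 312 reads and did not pass the rule in any comparison with wild type. Il21 had 177, 312, 84 and 97 reads, and of these Itch KO alone passed, at 3.22-fold over wild type (2.55 to 4.08). The part of these cytokines in the SOCS levels was not tested.

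Among the receptors, 21 of 30 genes passed the minimum level, with 7 higher and 1 lower in the library labelled DKO, 2 higher and 0 lower in Itch KO, and 0 and 0 in WWP2 KO. Of all genes tested, 12.3% were higher and 6.34% lower in the library labelled DKO. The shares were 4.89% and 0.846% in Itch KO, and 0.282% and 0.161% in WWP2 KO. The median log2 ratio of the receptors was 0.49 in the library labelled DKO, 0.28 in Itch KO and 0.04 in WWP2 KO. Over all genes tested the medians were -0.03, -0.02 and -0.01. Il12rb1 was 7.39-fold higher in the library labelled DKO (6.59 to 8.31), Il3ra 5.51-fold (4.37 to 7.02) and the IL-7 receptor gene Il7r 5.16-fold (4.8 to 5.55), and Il12rb2 was lower, at 0.424-fold (0.365 to 0.491). Il2rb, a signalling chain of the IL-2 receptor, was 2.22-fold higher in the library labelled DKO (2.15 to 2.29) and at 1.62-fold in Itch KO (1.57 to 1.68), and Il4ra was 2.41-fold higher (2.34 to 2.48) and at 1.48-fold (1.43 to 1.52). Il2ra stayed under 2-fold at 1.24 in the library labelled DKO and 1.43 in Itch KO. Il6st, which encodes gp130, the chain that SOCS3 binds, was at 0.667-fold in the library labelled DKO (0.627 to 0.710), 1.09-fold in Itch KO and 1.17-fold in WWP2 KO.

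Of the 4 kinases, Jak3, the partner of the common gamma chain, was 5.37-fold higher in the library labelled DKO (5.02 to 5.75) and 2.09-fold higher in Itch KO (1.94 to 2.25), with 1.37-fold in WWP2 KO (1.26 to 1.49). Jak1, Jak2 and Tyk2 did not pass in any of the 3 comparisons with wild type, and Jak2 was at 0.533-fold in the library labelled DKO (0.524 to 0.542). None of the 6 STAT genes listed passed in any of the 3. Stat5a came nearest, at 1.95-fold in Itch KO (1.91 to 1.99), against 1.17-fold in the library labelled DKO and 0.988-fold in WWP2 KO. Stat3 was at 1.67-fold in the library labelled DKO, 1.44-fold in Itch KO and 1.09-fold in WWP2 KO, Stat5b at 1.05, 1.46 and 0.991, and Stat6 at 0.621, 0.9 and 0.997.

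Genes listed as targets of STAT factors were grouped by STAT. The lists share some genes with each other and with the lists above, such as Il4ra, which is in the receptor, STAT5 and STAT6 lists. Beside the counts of each list stand the shares of all genes tested, 12.3% higher and 6.34% lower in the library labelled DKO. They were 4.89% and 0.846% in Itch KO, and 0.282% and 0.161% in WWP2 KO. Of the STAT3 targets 9 of 11 passed the minimum level, and 5 were higher and 0 lower in the library labelled DKO (median log2 ratio 1.34), 4 higher and 0 lower in Itch KO (0.85), and 0 and 0 in WWP2 KO (-0.09). Prdm1, which encodes the repressor Blimp-1, was 14.8-fold higher in the library labelled DKO (13.0 to 17.01) and 3.9-fold higher in Itch KO (3.37 to 4.53), beside 12.6 and 3.61 for Socs3. Maf was 10.1-fold and 2.49-fold higher, and Bcl3 5.88-fold and 2.32-fold. Prdm1, Maf and Bcl3 are named as the highest of the tested STAT3 targets in the library labelled DKO. Their height there was thus fixed by that choice. STAT6 targets were higher in 5 of 6 tested genes in the library labelled DKO and in 5 of 6 in Itch KO, with medians of 1.39 and 1.39. Of the STAT5 targets 17 of 18 were tested. Of these 4 were higher and 3 lower in the library labelled DKO (median -0.22), and 3 higher and 0 lower in Itch KO (0.48). Gzmb was 76.6-fold higher in the library labelled DKO (71.3 to 82.3) and 3.94-fold higher in Itch KO (3.64 to 4.27), while Pim2, Lta and Ltb were lower in the library labelled DKO, at 0.404-fold, 0.263-fold and 0.337-fold.

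**Figure D5:**
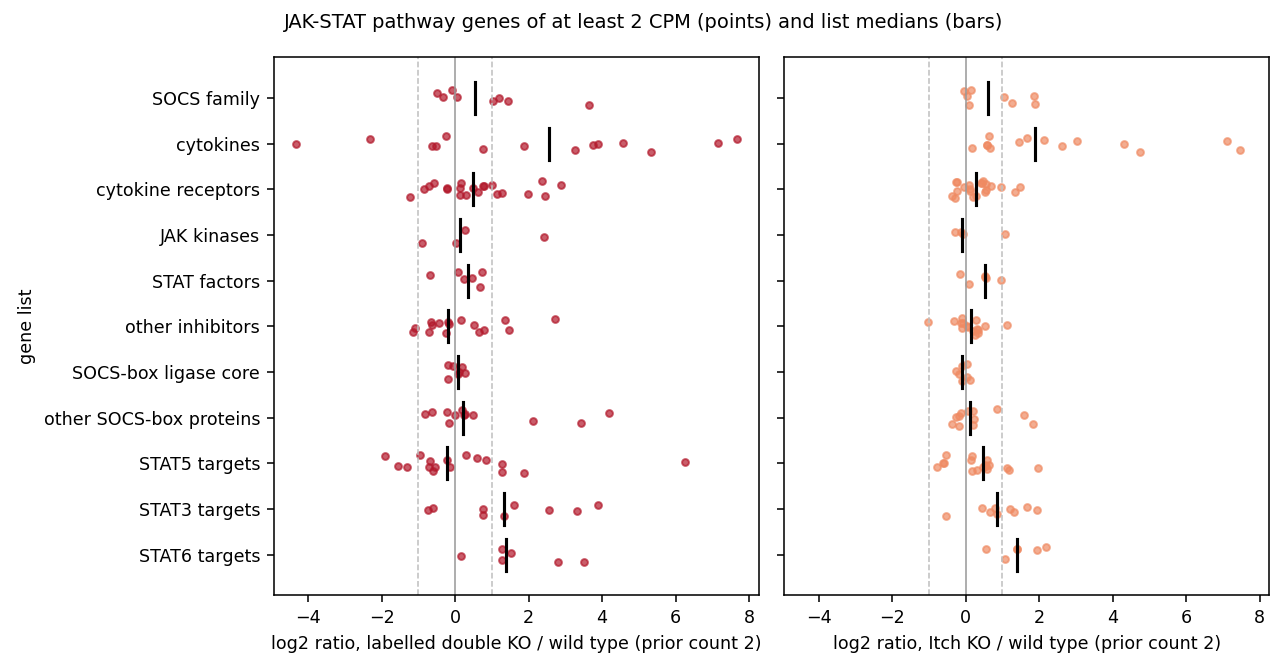
Log2 ratio to wild type of each tested gene (points) in the library labelled DKO (left) and Itch KO (right), by list (rows), with the list median as a black bar and dashed lines at 2-fold. Cytokines, STAT3 targets and STAT6 targets have the highest medians in both panels.

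Other inhibitors of cytokine signalling had genes past the rule in both directions. The counts are too small to say much beside the shares of all genes. Of 16 genes, 3 were higher and 2 lower in the library labelled DKO, 1 was higher and 1 lower in Itch KO, and none passed in WWP2 KO, where 12.3% and 6.34%, 4.89% and 0.846%, and 0.282% and 0.161% of all genes were higher and lower. The ubiquitin ligase gene Rnf128 (GRAIL) was 7.40-fold higher in the library labelled DKO (4.23 to 14.0) on 111 reads against 14, Pias3 2.81-fold (2.14 to 3.74) and Pdlim2 2.58-fold (2.29 to 2.92). Ptpn6, the gene for SHP-1, a phosphatase that damps JAK signals, was lower in both, at 0.467-fold in the library labelled DKO (0.435 to 0.5) and 0.491-fold in Itch KO (0.457 to 0.527). Dusp2 was at 0.450-fold in the library labelled DKO. The partners through which a SOCS box works, the elongin, cullin 5 and RBX genes and their neddylation factors, had 0 of 7 genes past the rule in each of the 3 comparisons with wild type, with medians of 0.07, -0.10 and -0.09; the same shares of all genes make few calls among 7 genes, so this count says little.

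Among 17 other genes for SOCS-box proteins, 12 passed the minimum level. In the library labelled DKO 3 were higher and 0 lower, in Itch KO 2 and 0, and in WWP2 KO 0 and 0. Of all genes tested, 12.3% were higher and 6.34% lower in the library labelled DKO. The shares were 4.89% and 0.846% in Itch KO, and 0.282% and 0.161% in WWP2 KO. Asb2, an ankyrin repeat member, had 3682 reads in the library labelled DKO, 668 in Itch KO and 171 in WWP2 KO, against 188 in wild type, 18.3-fold over wild type in the library labelled DKO (15.8 to 21.3) and 3.55-fold in Itch KO (3.02 to 4.2). Spsb1, a SPRY domain member, had 1531, 404, 226 and 132 reads, 10.8-fold (9.05 to 13.0) and 3.06-fold (2.51 to 3.75). Asb1 was 4.36-fold higher in the library labelled DKO (3.62 to 5.28) and at 1.82-fold in Itch KO. All 3 are named because they passed the rule in the library labelled DKO, so their high values there were fixed by that choice. Itch KO was next highest for each, as for Socs3. The other tested genes of the list did not pass in the library labelled DKO.

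For each of the 4 members called higher in the library labelled DKO, the genes with the most similar pattern were taken as those with the smallest Euclidean distance in the 3 log2 ratios to wild type, among 7452 genes of at least 10 CPM. The ratios share the wild-type library, and the distance describes these 4 libraries. Nearest to Cish were Trib1 (distance 0.13), Cobll1 (0.17) and Tnfrsf4 (0.18), the last with 8664 reads in the library labelled DKO, 7660 in Itch KO and 3515 in WWP2 KO, against 3358 in wild type. Nearest to Socs1 were Il18r1 (0.21), Ikzf4 (0.21) and Rhoq (0.24). Nearest to Socs2 were Prnp (0.19), Itgb8 (0.30) and Atp11a (0.31). Nearest to Socs3 were Itpripl2 (0.13), Crip1 (0.16) and Cdk1 (0.27), the last, the mitotic kinase gene, with 544, 145, 36 and 34 reads. Within the family Cish lay closest to Socs1 (0.56) and Socs2 (0.74) and farther from Socs3 (2.30), and the smallest distance of any pair was that of Socs6 and Socs7 (0.24).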

How the data were processed

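RNA of 4 libraries, 1 per genotype, was analysed from raw counts of reads per gene that the authors deposited without normalization. The submitters' processing notes list build mm9, HTSeq 0.7.1, TopHat 1.4.1 and Bowtie 1.0.0; annotation, strand setting and filters were not stated in the labels. Counts were scaled with edgeR 4.0.16 TMM factors (R 4.3.3). Log2 ratios use a prior count of 2 and folds use none; intervals are exact conditional binomial for folds and exact Poisson for levels, at 95%, and cover counting error only, since without molecular identifiers reads do not count molecules. Scripts were tested on simulated data. DESeq2 1.42.0 gave alternative size factors and a test. Gene lengths came from GENCODE M21 (GRCm38), and no coordinates of the authors' build are printed. The members and lists were chosen with earlier results of these data known. A size rule stood in for a test between single libraries. Genes named beyond the 8 members and fixed cytokine, receptor, JAK and STAT genes are up to 3 highest and 3 lowest of each list that pass it in the library labelled DKO, and the nearest 3 by pattern. Other computation used scipy 1.17.1, pandas 2.3.3 and numpy 2.4.6 in Python 3.11.15, with matplotlib 3.10.9 for figures. A few genes and 1 list are not reported here.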

Additional observations from a re-analysis of the deposited data

Results flagged for a closer look

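For 2 members the pair of comparisons that differ by the WWP2 label and share no library went opposite ways, with counting intervals that exclude 1 in each; the difference was not tested. The library labelled DKO had 1135 Wwp2 reads and Itch KO 1332, so their comparison does not measure loss of WWP2. Socs2 was at 0.615-fold in the library labelled DKO over Itch KO (0.537 to 0.704) and at 1.31-fold in WWP2 KO over wild type (1.05 to 1.64), a difference of log2 ratios of -1.08. Socs6 was at 0.746-fold (0.660 to 0.844) and 1.15-fold (1.02 to 1.29) in the same comparisons, a difference of -0.62.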

How the results depend on the processing

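No member's call between single libraries changed with DESeq2 size factors, total counts only, no low filter, a minimum of 10 CPM or a prior count of 0.5. The 2 filter settings could change neither a ratio nor a call. A filter does not enter a ratio, and all 8 members had means above 10 CPM. Ratios under these 2 settings equal the main ones and are among the 240 given next. Of 240 recomputed ratios 238 stayed within the counting interval, and no ratio past the size rule changed sign, though some near 0 did; the 2 that moved were Cish in the library labelled DKO over wild type and over Itch KO with total counts only. Over the Itch labels, the edgeR count of 0 members stayed at 0 with DESeq2 size factors and without the low filter, became 3 with DESeq2's test (6.15% of all genes called) and 2 with the WWP2 term (1.56%), and ran from 0 to 6 when 1 library was left out: 4 without the library labelled DKO (adjusted p from 3.135e-06 to 0.005758; 13.6% of all genes), 6 without Itch KO, which adds Socs6 and Socs7 as lower (0.02173 and 0.001524; 53.4% of all genes), and 0 without WWP2 KO or wild type. The lone library left on a side is then assumed to vary like the others; the cause of the differing counts was not tested. The longest coding transcript as length, chosen after seeing the data, swapped Socs2 and Socs5 in WWP2 KO. With that length the share of Cish lay between 56.2% and 64.0%. The share of Socs3 in the library labelled DKO was then 26.9%. No paired analysis was possible because the genotypes share only the replicate number 1.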
